A study of Caenorhabditis elegans with 6 samples.

Results

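Lysozyme and antimicrobial peptide genes of *C. elegans* were followed on 6 Affymetrix Gene 1.1 ST arrays of whole worms. The 11 probe sets described are those, of 29317 on the arrays, whose gene symbol in the authors' tables of baicalein against DMSO or of DMSO against water begins with lys-, ilys-, fipr- or cnc-, or is nlp-27 to nlp-34. They read 4 *lys* genes, 2 *ilys* genes, 4 *fipr* genes and *nlp-28*, and 0 *cnc* genes. RefSeq lists 64 genes with such names, so the other 53 were not analysed here. Because each table holds only entries past the authors' own threshold on these samples, the members are genes that had already differed in at least 1 of those comparisons. For 2 of them, *lys-3* and *lys-7*, this held in both. Counts of members are therefore not independent evidence.

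The 3 groups, of 2 arrays each, were worms given 100 µM baicalein (the flavone 5,6,7-trihydroxyflavone, added from a stock in DMSO), worms given 0.4% DMSO, the solvent, and worms given water. All were of the wild-type N2 strain, 3 days old and labelled as young adults. They had been synchronized by bleaching, and the baicalein and DMSO worms were treated in liquid S medium for 48 h at 20 °C from 16 to 18 h after hatching. The labels carry the same times and temperature for the water worms, and no separate schedule is given for them. The arrays are numbered as trials 1 and 2, and since the labels do not name separate cultures beyond that, the p-values measure the spread between these samples only. The values are log2 expression made by RMA, a method that corrects background, takes log2 and equalizes arrays. A value at or under 1.51, the median of all values on the 6 arrays, was read as near background. RNA of whole worms was measured, so fewer cells of a type and less RNA per cell cannot be told apart.

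Lysozymes cleave the peptidoglycan of bacterial walls. In *C. elegans*, which eats bacteria and has no adaptive immunity, they act both in digestion and in defence, and many are made in the intestine. The *lys* genes encode lysozymes of a type related to those of protists, and the *ilys* genes those of the invertebrate type. The *nlp-27* to *nlp-34*, *cnc* and *fipr* genes encode small secreted peptides, of which members of the *nlp-29* cluster, *nlp-28* among them, are induced in the epidermis by fungal infection and wounding. The name *fipr* stands for fungus-induced protein related. The members lie partly in clusters in RefSeq. *nlp-28* stands among *nlp-27*, *nlp-29*, *nlp-30*, *nlp-31* and *nlp-34*, *lys-3* beside *lys-1* and *lys-2*, *lys-4* beside *lys-5* and *lys-6*, and *fipr-1* and *fipr-2* have 1 protein-coding gene between them. Whether probes of such neighbours also read each other was not tested.

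The question of the first comparison was what the compound adds to its solvent. Of 6 lysozyme genes, *lys-7*, *lys-3* and *lys-8* were higher in baicalein-treated than in DMSO-treated worms, and *lys-4*, *ilys-5* and *ilys-6* did not pass the test. No member was called lower. Of the 11 members, 3 rose and 8 did not pass an adjusted p under 0.05 (limma, Benjamini-Hochberg over all probe sets). The same test called 1.73% of all probe sets higher and 7.03% lower with baicalein. The 3 that rose were among 6 members named by the table of this comparison, and 0 of the 5 named only in DMSO against water were called. Of the 4956 probe sets named in the tables, from which the members come, 314 were called higher and 1289 lower. The median log2 difference was 0.52 for the members, -0.08 for the named probe sets and 0.05 over all probe sets.

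*lys-7* encodes an intestinal lysozyme that is induced by several pathogens and is known as a target of DAF-16, the FOXO factor of insulin signalling. Its probe set (18582284) read 8.67 and 8.28 with baicalein, against 7.48 and 7.05 with DMSO. Every baicalein array lay above every DMSO array, and the log2 difference was 1.21 (standard error 0.23), a 2.32-fold rise with adjusted p = 0.0264 from limma.

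*lys-8* (18479620) encodes another lysozyme known from the intestine, which, like *lys-7*, responds to *Serratia marcescens*. It read 8.91 and 9.02 with baicalein and 8.21 and 7.86 with DMSO. The groups did not overlap, with a log2 difference of 0.93 (standard error 0.19, 1.90-fold, adjusted p = 0.0321 from limma).

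*lys-3* (18598742) encodes a further lysozyme of this type, and its probe set was above the background level on all 6 arrays. It read 3.64 and 3.35 in baicalein worms, against 2.36 and 2.42 in DMSO worms. The groups were again apart, with a log2 difference of 1.1 (standard error 0.23, 2.15-fold, adjusted p = 0.0367 from limma). The remaining *lys* member, *lys-4* (18553377), read 8.06 and 8.07 with baicalein and 8.01 and 7.43 with DMSO. Here the DMSO arrays lay 0.58 apart, which is more than the difference of 0.34 (95% confidence interval -0.22 to 0.90, adjusted p = 0.503 from limma).

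The invertebrate-type lysozyme gene *ilys-5* (18624453) was at 4.64 and 4.76 with baicalein and 4.71 and 4.50 with DMSO. Its groups overlapped, and the interval of the difference, -0.33 to 0.52, held changes of either sign. The other gene of that type, *ilys-6* (18556961), was faint, at 1.75 and 1.86 with baicalein against 1.16 and 1.57 with DMSO, where its mean was near background, and it did not pass the test (adjusted p = 0.781 from limma). The spread in this test was shared with the water arrays, where *ilys-6* read 4.06 and 1.91. With only the compared arrays it did not pass either (adjusted p = 0.427 from limma).

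None of the 5 peptide genes passed the test between baicalein and DMSO. *nlp-28* (18561519) read 10.06 and 9.45 with baicalein, against 9.27 and 9.17 with DMSO. Both baicalein arrays were the higher ones, but they lay 0.61 apart from each other, and the difference of 0.54 had an interval of -0.03 to 1.11 (adjusted p = 0.265 from limma). *fipr-1* (18588239) overlapped, with 2.21 and 1.63 against 1.70 and 1.72. *fipr-2* (18567960) read 1.74 and 1.84 with baicalein against 1.08 and 1.46 with DMSO, the DMSO mean lying near background. *fipr-9* (18562916) and *fipr-16* (18520901) lay at or around the background level in both groups, at 1.5 and 1.63, and at 1.42 and 1.59, with baicalein, against 1.08 and 1.18, and 0.85 and 0.95, with DMSO. For *fipr-16*, with both means near background, no fold is given.

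**Figure D1:**
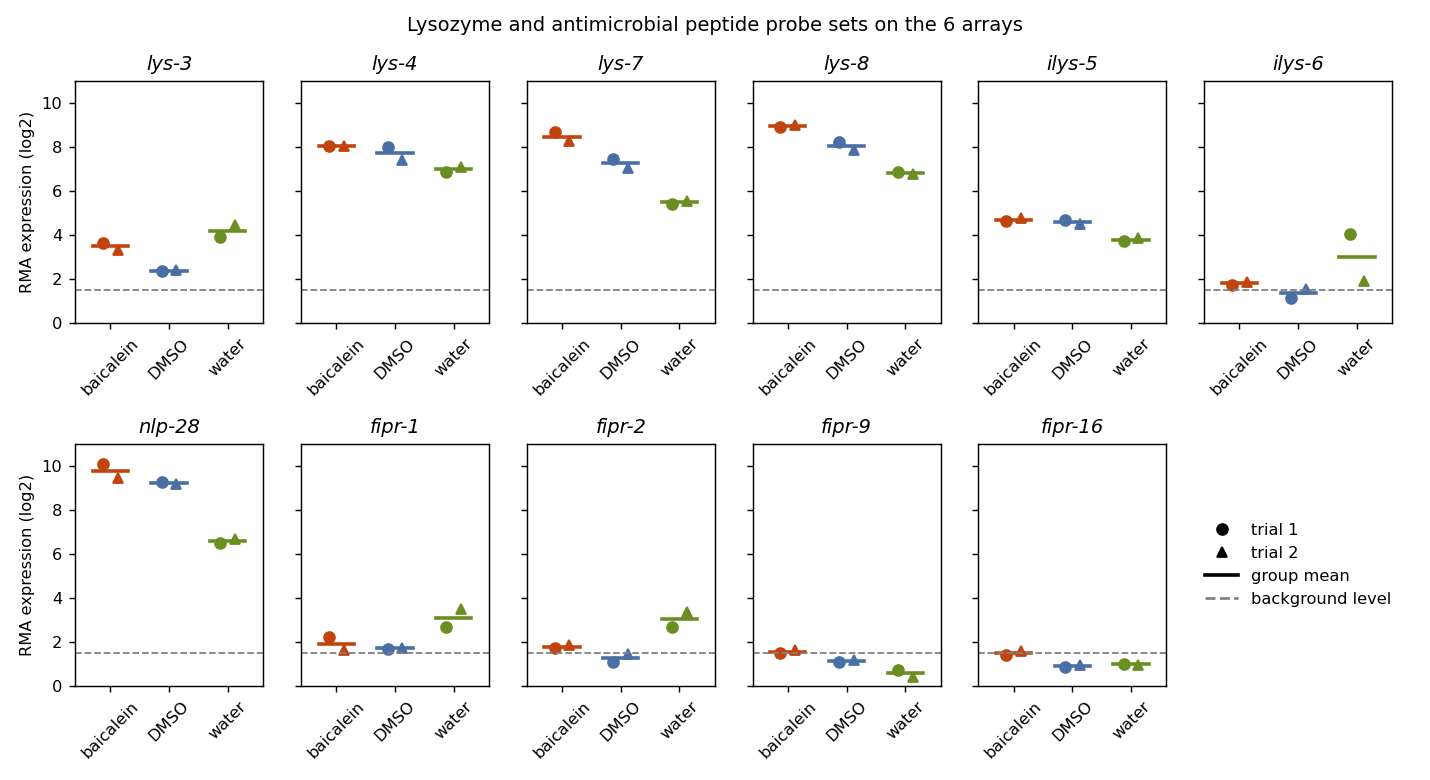
Each panel plots 1 member probe set, with log2 RMA expression on the vertical axis and the groups baicalein, DMSO and water from left to right. Points are arrays, bars are group means and the dashed line is the background level of 1.51. *lys-7* and *lys-8* step down from baicalein over DMSO to water, *lys-3* is lowest with DMSO, and in water *fipr-1* and *fipr-2* lie above the dashed line and *fipr-9* below it.

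The 3 calls between baicalein and DMSO were close to the threshold. Leaving out either DMSO array ended all 3 calls, as did leaving out either water array, without which the spread was estimated from fewer arrays. Without DMSO replicate 1 the adjusted p from limma was 0.0908 for *lys-7*, 0.0926 for *lys-8* and 0.184 for *lys-3*, and without DMSO replicate 2 it was 0.135, 0.145 and 0.152, while the log2 differences kept between 0.76 and 1.43. Without a water array, of either number, it was 0.0693, 0.0886 and 0.0544. Leaving out baicalein replicate 1 ended the call of *lys-3* (0.0722) and baicalein replicate 2 that of *lys-8* (0.0691). With arrays centred on their medians only *lys-7* passed (0.0495), and with quantile normalization applied again *lys-8* did not (0.0762). A variance trend with intensity ended the call of *lys-3* alone (0.0571).

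**Figure D2:**
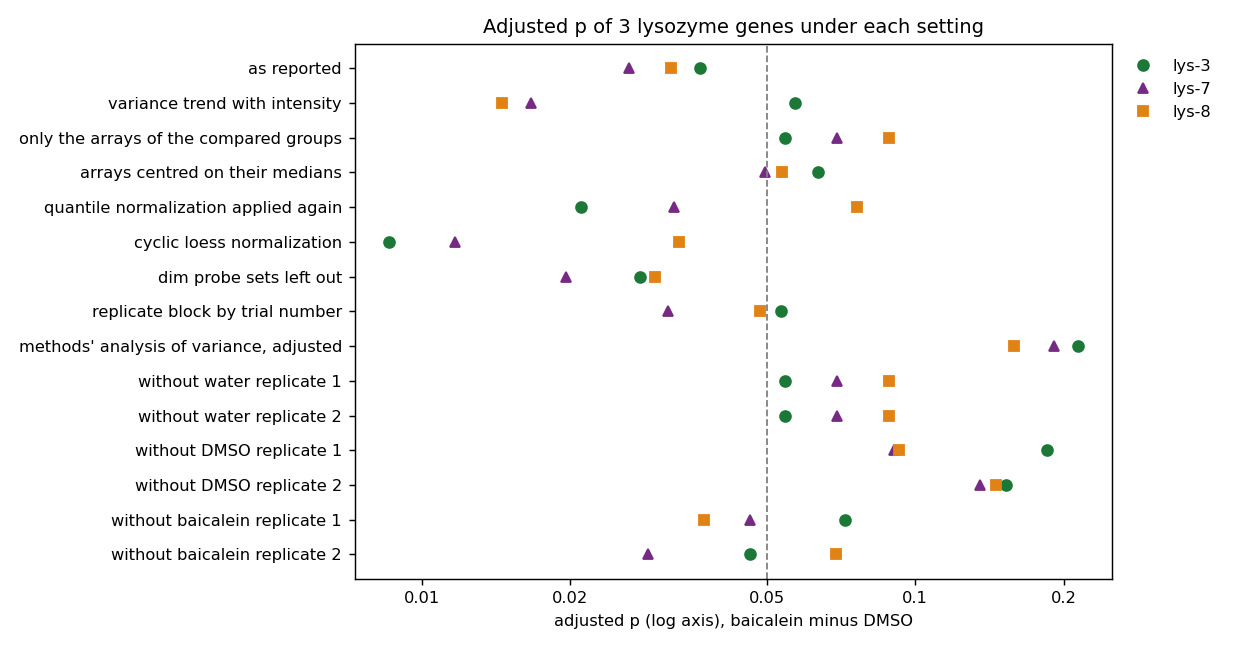
Adjusted p of *lys-3*, *lys-7* and *lys-8* between baicalein and DMSO, on a log axis, under the reported fit (top) and each other setting, with a dashed line at 0.05. The points cross the line under many settings, *lys-3* reaching 0.213 with the methods' test and adjusted p-values, and lie left of it for all 3 genes under cyclic loess normalization and with dim probe sets left out.

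The solvent was set against water in the next comparison, and here the members moved in both directions. *nlp-28*, *lys-7*, *lys-8* and *ilys-5* were higher in DMSO-treated than in water-treated worms, and *lys-3*, *fipr-1* and *fipr-2* were lower. Of the 11 members, 4 rose, 3 fell and 4 did not pass the limma test, which called 10.9% of all probe sets higher and 16.7% lower. Of 7 members named by the table of this comparison 6 were called, and of 4 named only in baicalein against DMSO, *lys-8* was. Of the 4956 named probe sets 1528 were called higher and 796 lower. The median log2 difference was 0.56 for the members, 0.36 for the named probe sets and 0.09 over all probe sets.

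Among the members called in this comparison *nlp-28* had the largest difference. It read 9.27 and 9.17 with DMSO, against 6.50 and 6.68 with water, a log2 difference of 2.63 (standard error 0.24, 6.18-fold, adjusted p = 0.000412 from limma). The arrays of a group lay within 0.18 of each other, far less than the distance between the groups.

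*lys-7* stood at 7.48 and 7.05 with DMSO, against 5.40 and 5.57 with water, and *lys-8* at 8.21 and 7.86, against 6.87 and 6.77. The groups were apart for both genes, with log2 differences of 1.77 (95% interval 1.22 to 2.32) and 1.21 (0.76 to 1.66), or 3.42-fold and 2.31-fold, and adjusted p = 0.00184 and adjusted p = 0.00391 from limma. *ilys-5* rose as well, by 0.81 on the log2 scale, reading 4.71 and 4.50 with DMSO, against 3.72 and 3.87 with water (1.75-fold, adjusted p = 0.0152 from limma). *lys-4*, at 8.01 and 7.43 with DMSO, against 6.89 and 7.11 with water, had a difference of 0.72 and missed the threshold (adjusted p = 0.0645 from limma). It passed without DMSO replicate 2, the lower DMSO array (0.0334), and also with a variance trend (0.0337), quantile normalization applied again (0.0431) or cyclic loess (0.0379).

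*lys-3* went the other way from *lys-7* and *lys-8*. It read 2.36 and 2.42 with DMSO, against 3.90 and 4.45 with water, so that its log2 value fell by 1.79 (standard error 0.23, 3.46-fold lower, adjusted p = 0.00189 from limma). *fipr-1* read 1.70 and 1.72 with DMSO, against 2.70 and 3.52 with water, and fell by 1.39 (adjusted p = 0.0188 from limma). *fipr-2* read 1.08 and 1.46, against 2.66 and 3.37. Its mean in DMSO was near background, so with that mean raised to the background level it was at least 2.84-fold lower with DMSO (adjusted p = 0.00403 from limma). In both *fipr* genes water replicate 2 was the higher of the water arrays and both DMSO arrays lay under either of them.

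The calls of *nlp-28*, *lys-7*, *lys-8*, *lys-3* and *fipr-2* stayed past the threshold with each array left out in turn, where a group left with 1 array was assumed to vary like the other groups. That of *fipr-2* was lost with the methods' test after adjustment (0.0724). *fipr-1* no longer passed limma when water replicate 2 (adjusted p = 0.0994), DMSO replicate 1 (0.0984) or DMSO replicate 2 (0.0954) was left out, nor did *ilys-5* without water replicate 1 (0.115), water replicate 2 (0.0689) or DMSO replicate 1 (0.0841). Quantile normalization applied again also ended the call of *fipr-1* (0.121), and cyclic loess that of *ilys-5* (0.0633). The higher water mean of *ilys-6* rested on a single array. This gene read 4.06 on water replicate 1 and 1.91 on water replicate 2, a gap larger than that of 99.95% of probe sets between these arrays, and 1.16 and 1.57 with DMSO (adjusted p = 0.108 from limma). *fipr-9* and *fipr-16* were near background in both groups, at 1.08 and 1.18, and 0.85 and 0.95, with DMSO, against 0.73 and 0.40, and 1.00 and 0.96, with water, and no fold is given for them.

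The water-treated worms also differed from both other groups in genes that follow age, although the labels give all groups the same age. Molting genes, of which 10 of 19 listed were named in a table, averaged 1.78 to 2.00 on the log2 scale with baicalein, 2.28 to 2.30 with DMSO and 5.99 to 6.01 with water. Of these 10, 9 were lower and 1, *ptr-2*, was higher in DMSO than in water. Genes of yolk and eggshell, 7 of 13 named, averaged 7.31 to 7.54 with baicalein, 8.48 to 8.50 with DMSO and 1.94 to 2.34 with water, and all 7 were higher in DMSO than in water. The same test called 10.9% of all probe sets higher and 16.7% lower. The yolk protein gene *vit-2* averaged 10.41 with baicalein, 10.10 with DMSO and 1.57 with water. Developmental stage and solvent therefore cannot be told apart in the differences of the lysozyme and peptide genes from water.

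Markers of the tissues that express these genes moved too. Of 7 named intestine markers, 4 were lower, 1 higher and 2 not called in DMSO against water, with a median log2 difference of -1.35. The list averaged 5.89 to 5.98 with baicalein, 5.38 to 5.51 with DMSO and 6.47 to 6.65 with water. In baicalein against DMSO 1 intestine marker was higher and 6 were not called (median 0.60). Only 2 of 9 listed epidermis markers were named, *col-12* and *elt-3*. Their average was 5.03 to 5.33 with baicalein, 3.72 to 4.10 with DMSO and 6.33 to 6.48 with water. Of 7 germline and oocyte markers, 6 were lower with baicalein than with DMSO and 7 of 7 higher with DMSO than with water. Markers of muscle, neurons and pharynx were above background on average on each array, at 2.30 or higher, in a sample labelled as the whole animal. In baicalein against DMSO 4 of 6 muscle markers (median 0.81) and 2 of 3 neuron markers (median 1.16) were higher, none was lower, and 0 of 3 pharynx markers were called. In the same comparison 2 of 10 molting genes, *ptr-2* (log2 difference -3.64) and *nhr-23* (-2.20), and 3 of 7 yolk and eggshell genes were lower and none higher. Those 3 were *cpg-1*, *cpg-2* and *egg-2*, while *vit-1* (-0.47) and *vit-2* (0.30) were not called. Over all probe sets the test called 10.9% higher and 16.7% lower in DMSO against water. In baicalein against DMSO it called 1.73% higher and 7.03% lower. The marker genes too come from tables of genes that differed, so their counts are not independent evidence. The part of these tissues and stages in the results was not tested.

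**Figure D3:**
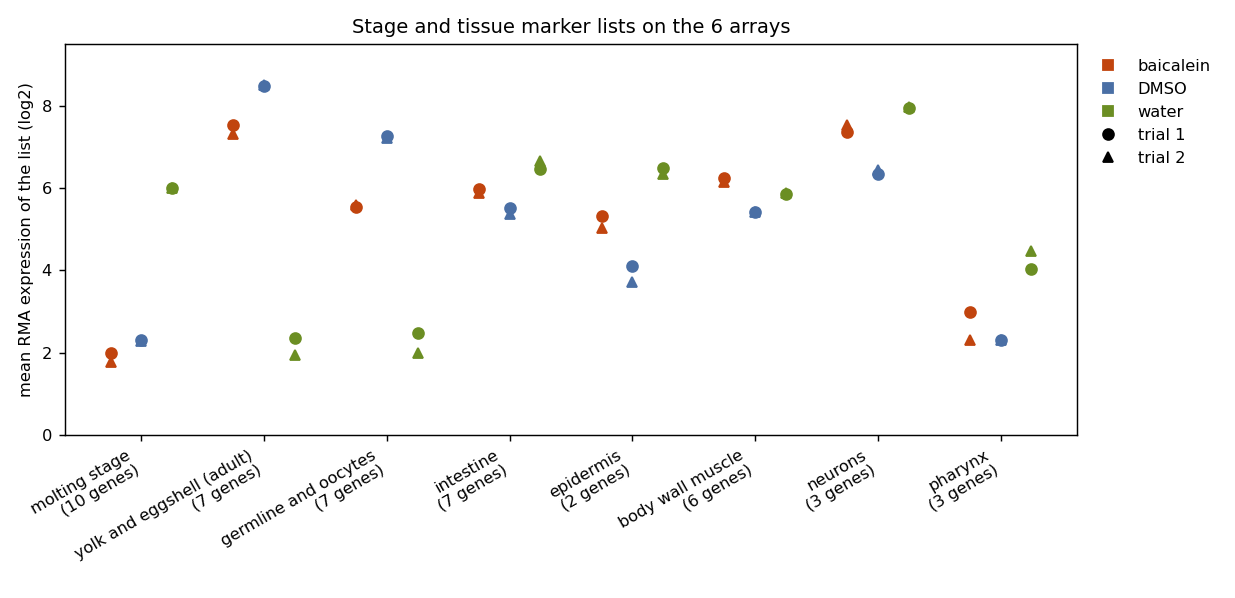
Mean log2 RMA expression (vertical axis) of the named genes of each stage and tissue list (horizontal axis, with the number of genes), as 1 point per array and coloured by group, baicalein left, DMSO in the middle and water right. Molting genes are near 6 only in water, and yolk, eggshell and germline genes are near 2 only in water. The intestine, epidermis, muscle and neuron lists, and narrowly the pharynx list, are lowest with DMSO.

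Baicalein was also set against water, a comparison that shares its arrays with the 2 others and adds no separate samples. The lysozyme genes *lys-7*, *lys-8*, *lys-4* and *ilys-5* and the peptide gene *nlp-28* were higher with baicalein and *fipr-1* and *fipr-2* lower. In all 6 members rose, 2 fell and 3 did not pass, against 6.79% of all probe sets higher and 15.4% lower. Among the 4956 named probe sets 842 were higher and 819 lower. The median log2 difference was 0.90 for the members, 0.19 for the named probe sets and 0.07 over all probe sets.

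*nlp-28* was 9.0-fold higher with baicalein than with water (log2 difference 3.17, standard error 0.24, adjusted p = 0.000246 from limma) and *lys-7* 7.92-fold (2.98, standard error 0.23, adjusted p = 0.000278). *lys-8* was 4.41-fold higher, with adjusted p = 0.000484 from limma. The baicalein and water arrays did not overlap for any member, called or not, so this does not mark out these 3 genes. The share of all probe sets without overlap was not worked out. *lys-4* read 8.06 and 8.07 with baicalein, against 6.89 and 7.11 with water, 2.09-fold higher (adjusted p = 0.0202 from limma). Its smaller difference between DMSO and water passed or missed the threshold depending on the setting, and the differences were not tested against each other. *ilys-5* was 1.87-fold higher (adjusted p = 0.0129 from limma). Both of these calls were lost without water replicate 1 (adjusted p = 0.13 and 0.1) or water replicate 2 (0.0797 and 0.0678), and that of *lys-4* also without baicalein replicate 2 (0.0501).

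*lys-3* did not pass against water, with 3.64 and 3.35 with baicalein against 3.90 and 4.45 with water (log2 difference -0.69, 95% interval -1.25 to -0.13, adjusted p = 0.0838 from limma). All baicalein arrays were nevertheless under both water arrays, so in the deposited values the DMSO arrays were lowest, the baicalein arrays in between and the water arrays highest. The difference from water kept its sign under all alternatives, but its size depended on the scaling. It was -0.02 after quantile normalization (adjusted p = 0.965 from limma) and -0.19 after cyclic loess (0.554), so the baicalein and water means were close there. The differences of *lys-3* between baicalein and DMSO and between DMSO and water share the same 2 DMSO arrays. *fipr-1* and *fipr-2* were lower than in water, with log2 differences of -1.19 and -1.23 (adjusted p = 0.0414 and adjusted p = 0.0214 from limma), 2.28-fold and 2.35-fold. Without water replicate 2 neither passed (0.215 and 0.118), and *fipr-1* was also lost without baicalein replicate 2 (0.128) or a DMSO array of either number (0.0875). In all *fipr-1* lost its call under 11 of 16 alternatives, with log2 differences of -0.81 after quantile normalization (0.181) and -0.63 after cyclic loess (0.15), and with arrays centred its adjusted p was 0.0573. *fipr-2* did not pass after quantile normalization (0.0922) or cyclic loess (0.0908) either.

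*fipr-9* was called higher with baicalein than with water (adjusted p = 0.0116 from limma), at 1.5 and 1.63 against 0.73 and 0.40. Its baicalein mean of 1.56 was only 0.05 above the background level and its water mean under it. With the water mean raised to that level the means stood 1.03-fold apart, and the call belongs to the unraised difference. The call was lost without water replicate 2 (0.0962). *fipr-16* had all group means near background. *nlp-28*, *lys-4*, *lys-7*, *lys-8*, *ilys-5*, *lys-3* and *fipr-1* were over the background level on all 6 arrays, and *fipr-2*, *ilys-6*, *fipr-9* and *fipr-16* had 1 to 3 group means at or under it.

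**Figure D4:**
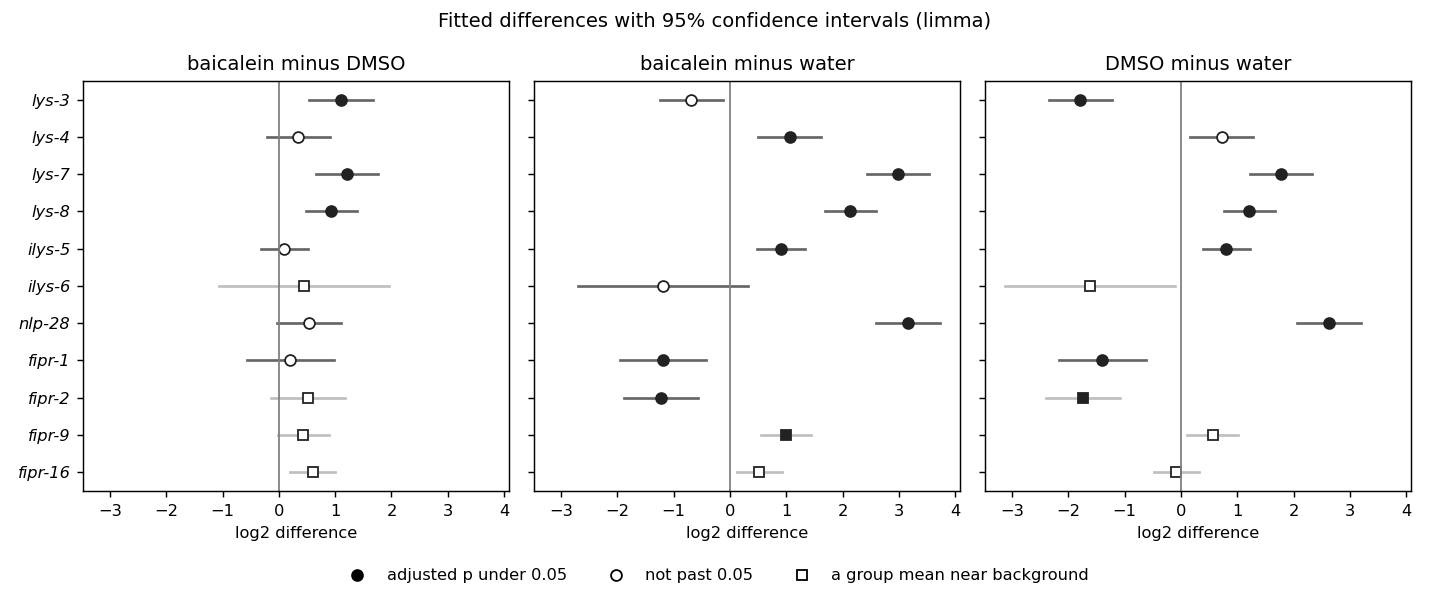
Log2 differences (horizontal axis) of the 11 members for baicalein minus DMSO, baicalein minus water and DMSO minus water, with 95% confidence intervals from limma. Filled symbols passed an adjusted p of 0.05, and squares have a group mean near background. The *lys-7*, *lys-8* and *nlp-28* intervals lie right of 0 against water and those of *fipr-1* and *fipr-2* left of it, while *lys-3* is right of 0 only against DMSO.

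Genes known to control these effectors were described from lists. Few of them are named in the tables, which again list genes that differed in these samples, 2 of 8 of the p38 MAPK cascade, 4 of 12 of epidermal defence signalling, 1 of 12 of the DBL-1 pathway (*lon-1*, not called in any comparison) and 4 of 13 transcription factors. Between DMSO and water, 8 of these 11 genes were lower and 3 were not called. The same test called 16.7% of all probe sets and 796 of the 4956 named ones lower. Developmental stage and solvent cannot be told apart here either. *nipi-3*, a Tribbles-like kinase gene needed for the induction of *nlp-29* on fungal infection, averaged 4.64 with DMSO against 6.76 with water (log2 difference -2.12, adjusted p = 0.00256 from limma). *vhp-1*, whose phosphatase dampens MAPK signalling, fell by 2.32 and *tpa-1*, a protein kinase C gene upstream of the cascade, by 1.58.

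Between baicalein and DMSO 2 of these 11 genes rose, 1 fell and 8 were not called, against 1.73% of all probe sets higher and 7.03% lower. The bZIP factor gene *zip-2*, which acts in the response to *Pseudomonas aeruginosa*, averaged 7.20 with baicalein against 6.06 with DMSO, a log2 difference of 1.14 with adjusted p = 0.015 from limma. *cebp-1*, another bZIP factor gene, rose by 1.05 (adjusted p = 0.0204 from limma). In water *zip-2* averaged 7.47 and *cebp-1* 4.97. Baicalein and water thus lay close for both, with uncalled log2 differences of -0.27 for *zip-2* and 0.04 for *cebp-1*. *akir-1*, a nuclear cofactor gene of epidermal peptide expression, fell by 0.85 (adjusted p = 0.0285 from limma). The values of *daf-16*, whose product controls *lys-7*, were 3.80 with baicalein and 4.31 with DMSO on average, and the difference did not pass (adjusted p = 0.176 from limma).

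Other antimicrobial families named in the tables gave a setting for the members. Between baicalein and DMSO 2 of 10 saposin-like *spp* genes and 1 of 3 thaumatin-like *thn* genes rose and none fell, and of 38 C-type lectin genes 5 rose, 3 fell and 30 were not called. The largest rises were those of the lectin gene *clec-60*, at 7.69 with baicalein against 5.46 with DMSO on average (log2 difference 2.24, adjusted p = 0.00533 from limma), and of *thn-2*, at 5.50 against 3.55 (1.95, adjusted p = 0.0127). The median log2 differences were 0.42 for *spp*, 0.73 for *thn* and 0.32 for the lectins, beside 0.52 for the members. In this comparison 314 of the 4956 named probe sets were called higher and 1289 lower. Of the 38 lectin probe sets, 11 with baicalein and 12 with DMSO had means near background, and *clec-60* was higher still in water, at 9.69. The only *abf* gene, *abf-6*, was not called. Between DMSO and water, *abf-6* was called lower, with a mean near background in DMSO. Of 10 *spp*, 3 *thn* and 38 lectin genes, 8, 1 and 10 rose and 1, 0 and 4 fell. The same test called 1528 of the 4956 named probe sets higher and 796 lower, so the lectin counts did not stand out. Among the lectins, 12 means with DMSO and 20 with water were near background.

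The genes whose values followed a member most closely were sought among 4916 other probe sets with 1 gene name. Likeness was the root mean square difference of values centred on each probe set's own mean over the 6 arrays, on the log2 scale. For *lys-8* the nearest was *oig-2* (0.08), with means of 8.35 with baicalein, 7.50 with DMSO and 6.28 with water. For *lys-7* the nearest was *spig-15* (0.16), at 7.41, 6.25 and 4.29 in the same order. *nlp-28* was followed most closely by *T07D10.3* and the lectin gene *clec-85* (0.17 each), *lys-3* by *R09A1.3* (0.13), *fipr-1* by *nhr-31* (0.12) and *fipr-2* by the transporter gene *wht-1* (0.13). The arrays form 3 groups of 2, so a close match says only that the 3 group levels stood in the same relation.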

How the data were processed

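RNA of whole worms was hybridized by the authors to Affymetrix *C. elegans* Gene 1.1 ST arrays. The deposited log2 values are the authors' RMA values, per their methods corrected for background, log2 transformed and quantile normalized. Their medians ranged between 1.42 and 1.59 and their upper quartiles between 2.46 and 3.26, so that the arrays do not share a distribution, and which were normalized together is not given in the sources used here. The deposited tables of baicalein against DMSO (3619 entries) and of DMSO against water (1982) hold the authors' p-values, ratios and fold changes from Partek for entries with p of 0.05 or less. They were used for gene names only, which cover 4956 probe sets, 4299 through their accession in RefSeq, and 113 entries shifted by commas were realigned.

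All 6 arrays entered 1 fit of group means in limma 3.58.1 (R 4.3.3; Python 3.11.15, numpy 2.4.6 and pandas 2.3.3 for tables), with 3 residual and 3.51 prior degrees of freedom. For each comparison, Benjamini-Hochberg adjustment ran over 29317 probe sets, and none was filtered out. A group mean at or under the median of all values (1.51) was raised to it and the difference of the means given as a bound. Intervals and p-values belong to the unraised differences. The members, the lists and the tests were chosen with earlier results of these data known. Every member is named, with the nearest probe sets by pattern and a choice of genes from the immune lists. These were not always the genes of smallest p in their list. *daf-16* and the marker genes singled out were named after their values were seen. Where a list gene had several probe sets, the one with the highest mean stood for it. Alternatives were a variance trend, only the compared arrays, 3 scalings, a filter on dim probe sets, the trial number as a block, the test named in the methods, unadjusted p and each array left out. The number of arrays limits the precision. Scanner files were not used, so another background correction was not run.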

Additional observations from a re-analysis of the deposited data

How the results depend on the processing

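Among the values of single members under alternatives, 442 kept their direction and their side of the threshold, 59 lost the call, 18 gained it and 3 changed sign. Those 3 were uncalled differences near 0. *fipr-16* in DMSO minus water was 0.032 with arrays centred, and in baicalein minus DMSO the values with each array left out ranged from -0.0094 (without DMSO replicate 2) to 0.20 for *ilys-5* and from -0.084 (without baicalein replicate 1) to 0.50 for *fipr-1*. In baicalein minus DMSO the members called were 0 with only the compared arrays, 0 with the methods' test adjusted, 1 with arrays centred and 0 to 2 with an array left out, against 3. Probe sets called there were 1178 with only the compared arrays, 1 and 5032 with the methods' test adjusted and unadjusted, 6146 with limma unadjusted and 0 to 4215 with an array left out, against 2567. In DMSO minus water they were 3845 with the methods' test adjusted and 5145 to 9839 with an array left out, against 8073. The members called there were 5 with the methods' test adjusted, which lost *fipr-1* (0.14) and *fipr-2* (0.0724), and 5 to 7 with an array left out, against 7. In baicalein minus water they were 2454 with the methods' test adjusted, 10711 with limma unadjusted and 3329 to 8825 with an array left out, against 6505, and the members called were 3 with the methods' test adjusted and 4 to 8 with an array left out, against 8. Without DMSO replicate 1, 0 probe sets passed limma in baicalein minus DMSO, with a smallest adjusted p of 0.0624.

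The share of higher calls was 19.8%, 39.4% and 30.6% in baicalein minus DMSO, DMSO minus water and baicalein minus water. A repeated quantile normalization gave 45.9%, 48.1% and 46.7%, and cyclic loess gave 42.5%, 48.0% and 45.9%. The cause was not tested. With arrays centred, the median over all probe sets in DMSO minus water was 0.20 in place of 0.09. Members with a group mean near background numbered 4, also with each array's own median as that level, and 5 with the 60th percentile (1.83). The member added there was *fipr-1*, whose DMSO mean was 1.71. With a replicate block for the trial number, the members called were 2, 7 and 7 in these 3 comparisons, against 3, 7 and 8, and 2359, 7878 and 6200 probe sets. The calls lost were *lys-3* in baicalein minus DMSO (adjusted p = 0.0534 from limma) and *fipr-1* in baicalein minus water (0.0577). The deviations of same-numbered arrays correlated at 0.16, -0.07 and -0.05 between groups, so the numbers were not read as pairs. *fipr-9* and *fipr-16* were lost to the filter on dim probe sets and have no value there.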
